A study of Plutella xylostella with 6 samples.

Results

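Cuticle proteins are the structural proteins that epidermal cells secrete onto the chitin of the insect body wall. Their genes were followed here in whole second-instar larvae of P. xylostella, the diamondback moth, after 12 hr with or without DMNT. Members were taken by the wording of the gene descriptions in the deposited table, as every row described as a cuticle protein, a cuticular protein or an endocuticle structural glycoprotein. This rule found 112 of 21946 rows. DMNT (dimethyl nonatriene) is a volatile terpene that plants release and that repels and kills these larvae. The control group had 3 libraries and the DMNT group had 3, each of whole-body RNA from second-instar larvae at 12 hr, and no strain, genotype or other agent is named for either group. Paraffin oil was the solvent in the study's bioassays, while the labels state neither a dose nor a solvent for these libraries. The sources used here do not say how many larvae went into a library or whether libraries came from separate cultures. The p-values below therefore rest on differences among these 6 samples only, which may be technical.

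The cuticle is a layered coat of chitin fibres and proteins, and many of its proteins carry a chitin-binding domain that holds the fibres together. At each moult the epidermis detaches from the old cuticle, lays down a new one and digests the old one from below, and pulses of the steroid hormone ecdysone set the order in which cuticle protein genes are switched on and off. Different proteins go into stiff plates, soft membranes between plates, and the endocuticle that is added after the old skin is shed. The class names below come from the species in which a similar protein was first described: the rigid and flexible names from the silkmoth Hyalophora cecropia, LCP-17, LCP-22 and LCP-30 from the silkworm, A2B and C1B from the beetle Tenebrio, and 16.5 and the SgAbd names from locusts. A name such as "pupal" therefore describes the namesake, not the stage at which the P. xylostella gene is used.

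The members fell into 24 larval, 12 pupal, 11 cuticle protein 16.5, 6 endocuticle, 4 rigid, 2 flexible and 2 adult genes, and 51 others with numbered or general names such as cuticle protein 7, 8, 19 or 70. Of the 112, 99 had a mean FPKM (reads scaled by exon length and by the mapped reads of the library) of at least 0.5 and were tested, and 13 did not. Among those 13, LOC105388439 (cuticle protein 8-like) and LOC105391492 (cuticle protein 64-like) had 0 counts in all 6 libraries, and the highest mean FPKM was 0.442 for LOC105395358 (cuticle protein 63-like). A count of 0 allows a level of up to 0.0532 to 0.0753 CPM in a library, at 3 counts and for counting error only. CPM are counts scaled to a common library size by TMM, edgeR's trimmed mean method, so that levels of a gene can be compared between libraries. The limits for a count of 0 used library totals without the TMM factors, which were 0.962 to 1.07. In 7 rows the assembly had joined 2 annotated genes, so their reads cannot be assigned to either gene. Library totals were 39853422 to 56381123 counts.

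Cuticle protein genes were abundant in these larvae. The median member had a mean FPKM of 24.7, against 3.52 over all rows of the table, and 34 members (30.4%) reached 100 FPKM, as did 3.55% of all rows. The highest on this per-length scale was LOC105393786, a larval cuticle protein LCP-17-like gene, at 1659 FPKM. Next came LOC105395015 (cuticle protein 16.5, isoform B) at 1260 FPKM and the row joining LOC105394830 (cuticle protein CP14.6-like) with LOC105394828 (flexible cuticle protein 12-like) at 852 FPKM. Summed over the members, counts were 1.34%, 1.03% and 1.62% of all counts in Control 1, 2 and 3, and 0.724%, 1.30% and 1.36% in DMNT 1, 2 and 3. The control and DMNT ranges of this share overlapped. In whole-body RNA, fewer epidermal cells and less RNA per epidermal cell cannot be told apart.

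**Figure D1:**
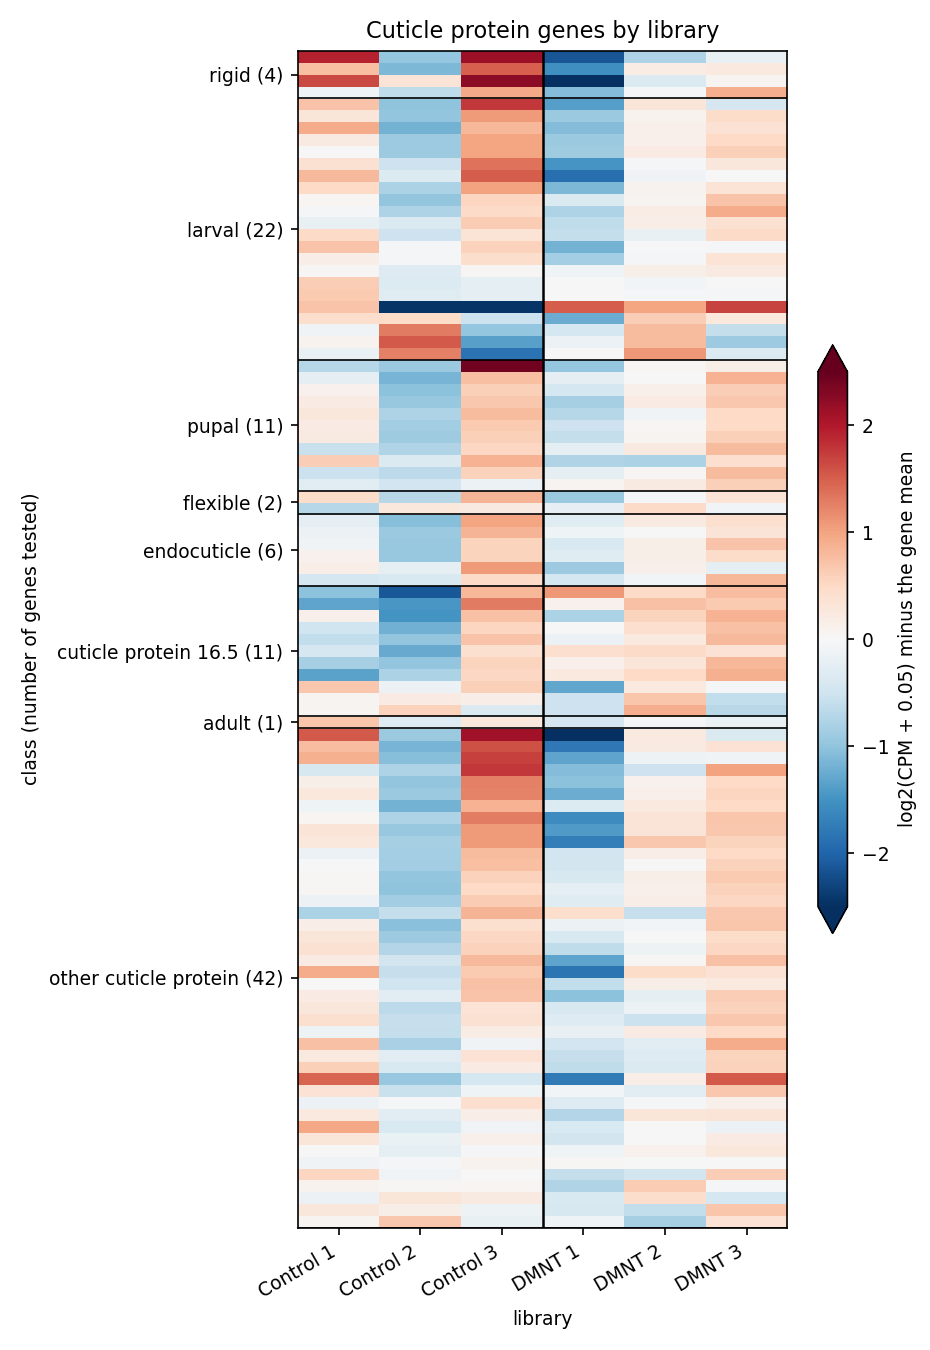
Each row is 1 of the 99 cuticle protein genes tested, grouped by class, and each column a library. Color gives log2(CPM + 0.05) minus the gene's mean over the 6 libraries, and the scale ends at 2.5 in either direction. Blue dominates in Control 2 and DMNT 1, where 86 of the 99 genes had their lowest value, and red in Control 3 and DMNT 3, where 77 had their highest.

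The first comparison was DMNT against control over all cuticle protein genes. Genes were called at a log2 fold change of 1 or more in either direction with p under 0.05 before adjustment, in edgeR's quasi-likelihood test. By these, 2 of 99 members fell and 0 rose. This is 2.02% of the members, where 0.870% of the 17709 genes tested passed in either direction (0.503% lower and 0.367% higher). Both that fell were rigid cuticle genes. By unadjusted p alone 3 members passed, against a background of 3.43%, and after Benjamini-Hochberg adjustment over all genes edgeR called 0 members and 0.0113% of all genes, and the smallest adjusted p of a member was 0.9999. The log2 fold change lay below 0 in 60 members (60.6%) and in 50.6% of all genes, and its median was -0.10 over the members and -0.0032 over all genes. The standard error of the fold change was larger here than elsewhere, with a median of 0.413 for members and 0.247 for all genes. The libraries decided these counts: without Control 2, 9 members passed as lower (0.757% of all genes), and without Control 3, 0 passed as lower (0.621% of all genes) and 7 as higher (0.723% of all genes).

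The control and DMNT libraries did not overlap for 3 members (3.03%), against 8.37% of all genes. They were LOC105389379 with DMNT lower, and LOC105390585 and LOC105395004 with DMNT higher. Of all genes, 4.12% had every DMNT library below every control and 4.25% had the reverse.

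**Figure D2:**
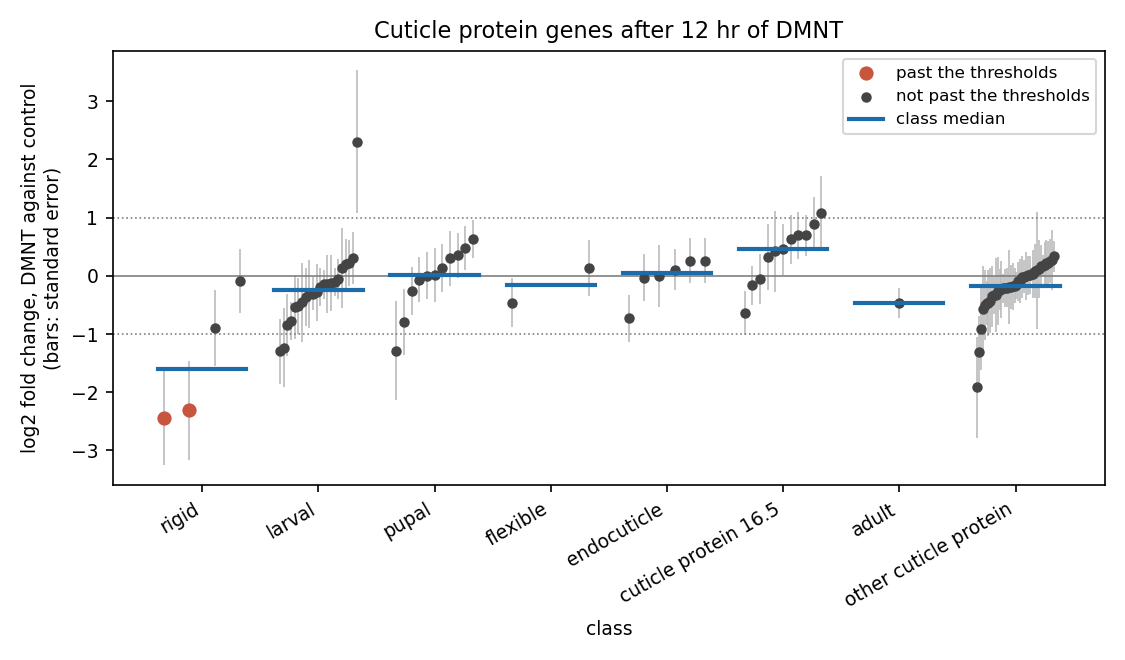
Log2 fold change of DMNT against control (vertical axis) for the 99 genes tested, by class, with the standard error as a bar and the class median as a blue line. Red points mark the 2 rigid genes past these thresholds, at -2.45 and -2.31, and dotted lines stand at 1 and -1.

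Rigid cuticle genes had the lowest median log2 fold change of any class, -1.60. All 4 are described as larval/pupal rigid cuticle protein 66-like, a protein of stiff cuticle in the silkmoth, and follow each other directly among the assembled loci. LOC105389378 stood at 5.07, 0.641 and 5.95 CPM in Control 1, 2 and 3 and at 0.257, 0.748 and 1.15 CPM in DMNT 1, 2 and 3. Its 3 DMNT libraries were all far below Control 1 and Control 3, but Control 2 lay among them. It fell by 2.45 on the log2 scale (SE 0.81, unadjusted p = 0.0165 and adjusted p = 0.9999 in edgeR), and the call was lost without Control 3 (log2 fold change -2.0) or without DMNT 1 (-2.05).

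LOC105389379 had 6.32, 2.49 and 9.48 CPM in the controls and 0.0858, 1.53 and 2.08 CPM with DMNT. Every DMNT library was below every control, and DMNT 1 was far below the rest, with 4 counts, so that the highest library exceeded the lowest by 110 times. The gene fell by 2.31 on the log2 scale (SE 0.85, unadjusted p = 0.0263 and adjusted p = 0.9999 in edgeR). That call was lost without Control 1, Control 3 or DMNT 2, with log2 fold changes of -2.28, -1.84 and -2.51.

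The other rigid genes did not pass. LOC105389380, the most abundant of the 4 at 35.0 FPKM, had 32.7, 8.90 and 55.2 CPM in the controls and 6.67, 22.3 and 23.0 CPM with DMNT, with a log2 fold change of -0.90 (SE 0.65, unadjusted p = 0.205 in edgeR). Control 2 and DMNT 1 were again its low libraries, and the groups overlapped. For LOC105389377 the controls were at 3.14, 2.13 and 6.56 CPM and the DMNT libraries at 1.57, 3.27 and 6.33 CPM, nearly the same set of levels, with a log2 fold change of -0.09 (SE 0.55). Among the rigid genes, all 4 were highest in Control 3 and all 4 lowest in DMNT 1.

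Larval cuticle genes made up the largest share of cuticle protein counts, and 0 of the 22 tested passed the thresholds. Their log2 fold changes had a median of -0.24, with 17 below 0 and 5 above. The most abundant, LOC105393786 (LCP-17-like), had 1408, 577 and 2019 CPM in the controls and 464, 1060 and 1267 CPM with DMNT. The low libraries were Control 2 and DMNT 1 and the groups overlapped, and the log2 fold change was -0.52 (SE 0.48, unadjusted p = 0.311 in edgeR). LOC105381362 (LCP-22-like), the second by level at 758 FPKM, had the same pattern with 574, 260 and 971 CPM in the controls and 259, 533 and 690 CPM with DMNT.

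The smallest p-values of the class belonged to LOC105381292 (LCP-22-like) and LOC105381407 (LCP-17-like). LOC105381292 had 55.2, 33.2 and 50.4 CPM in the controls and 14.8, 33.3 and 32.5 CPM with DMNT, and its log2 fold change of -0.78 (SE 0.33, unadjusted p = 0.0434 in edgeR) was under the threshold in size. DMNT 2 lay just above Control 2, so that the groups overlapped by this pair alone. LOC105381407 had 348, 156 and 571 CPM in the controls and 53.7, 186 and 198 CPM with DMNT, with a log2 fold change of -1.30 (SE 0.56, unadjusted p = 0.0501 in edgeR). At the other end, LOC105390585 (A2B-like) was barely detected, with 0.401 CPM in Control 1, 0 counts in Control 2 and Control 3, and 0.729, 0.493 and 0.833 CPM with DMNT. Its groups did not overlap, and its log2 fold change of 2.30 (SE 1.22, unadjusted p = 0.0968 in edgeR) rests on those low counts.

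Pupal cuticle genes were on average level between the groups. Of the 11 tested, 6 had log2 fold changes above 0 and 5 below, with a median of 0.02, and 0 passed. LOC105395003 (C1B-like), the most abundant at 287 FPKM, had 78.8, 69.0 and 165 CPM in the controls and 98.4, 136 and 201 CPM with DMNT, with a log2 fold change of 0.48 (SE 0.37). LOC105387939 (pupal cuticle protein-like) had 155, 74.2 and 217 CPM in the controls and 76.9, 118 and 179 CPM with DMNT. In both genes Control 3 was the highest control and DMNT 3 the highest DMNT library.

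Among low pupal genes, LOC105395004 (C1B-like), a neighbour of LOC105395003 among the assembled loci, had 0.836, 0.717 and 0.914 CPM in the controls and 1.07, 1.21 and 1.56 CPM with DMNT. All DMNT libraries were above all controls by a small margin, and the log2 fold change was 0.63 (SE 0.33, unadjusted p = 0.0912 in edgeR). LOC105395365 (C1B-like) was set apart by 1 library, with 4.82, 4.11 and 42.1 CPM in the controls and 4.03, 8.12 and 8.80 CPM with DMNT. Its log2 fold change was -1.28 (SE 0.85) with all libraries and 0.64 without Control 3.

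The flexible class held 2 rows of very different level. The abundant one joins LOC105394830 (cuticle protein CP14.6-like) with LOC105394828 (flexible cuticle protein 12-like), so its level may not be that of the flexible gene. It had 1162, 520 and 1522 CPM in the controls and 440, 818 and 1073 CPM with DMNT, with a log2 fold change of -0.46 (SE 0.42). LOC105396844 was at 0.331, 0.698 and 0.681 CPM in the controls and 0.493, 0.821 and 0.547 CPM with DMNT. The abundant row was low in Control 2 and DMNT 1, whereas the other was lowest in Control 1.

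Endocuticle structural glycoproteins, components of the inner cuticle in locusts, also showed 0 calls among 6 genes, with 3 log2 fold changes above 0, 3 below and a median of 0.05. LOC105381430 (SgAbd-8-like) had 227, 126 and 357 CPM in the controls and 187, 266 and 397 CPM with DMNT. LOC105381440 (ABD-4-like) had 148, 71.3 and 201 CPM in the controls and 111, 153 and 188 CPM with DMNT. These neighbouring genes share the order of libraries within each group, and their log2 fold changes of 0.26 (SE 0.39) and 0.10 (SE 0.36) were smaller than their errors. The lowest fold change of the class was that of LOC105384940 (SgAbd-5-like), -0.73 (SE 0.40, unadjusted p = 0.105 in edgeR), with 3.54, 2.70 and 6.67 CPM in the controls and 1.65, 3.45 and 2.66 CPM with DMNT.

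Cuticle protein 16.5 genes leaned the other way from the rigid and larval genes. Of 11 tested, 8 had log2 fold changes above 0 and 3 below, with a median of 0.46, and 0 passed. LOC105391272 had 1.32, 1.98 and 4.96 CPM in the controls and 4.07, 4.87 and 6.38 CPM with DMNT, with a log2 fold change of 0.89 (SE 0.46, unadjusted p = 0.0906 in edgeR). The nearby LOC105391271, in a row joined with the mucin-19-like gene LOC105391292, had 48.3, 26.8 and 84.4 CPM in the controls and 86.4, 89.4 and 82.8 CPM with DMNT, with a log2 fold change of 0.70 (SE 0.35, unadjusted p = 0.0836 in edgeR). In both genes Control 3 alone reached the DMNT levels. Without Control 3, 7 rows of this class passed the thresholds as higher, with log2 fold changes of 1.14 to 2.29. That fit called 0.723% of all genes higher. Among these rows were joined ones: LOC105391292 with LOC105391271, LOC105380700 with LOC105380655, and LOC105398516 with LOC105398514. Their reads cannot be assigned to either gene.

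The most abundant genes of the 16.5 class did not share that lean. LOC105395015 had 551, 787 and 411 CPM in the controls and 366, 985 and 326 CPM with DMNT, highest in Control 2 and DMNT 2. LOC105388717 had 208, 227 and 224 CPM in the controls and 138, 320 and 130 CPM with DMNT. Their log2 fold changes were -0.06 (SE 0.43) and -0.17 (SE 0.33).

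Of the 42 other cuticle proteins tested, 16 had log2 fold changes above 0 and 26 below, with a median of -0.17, and 0 passed. LOC105388427 (cuticle protein 8-like) was the most abundant at 776 FPKM, with 503, 243 and 693 CPM in the controls and 418, 532 and 733 CPM with DMNT. LOC105395357 (cuticle protein-like) had the lowest fold change, with 3.03, 0.509 and 4.49 CPM in the controls and 0.129, 1.21 and 0.781 CPM with DMNT and a log2 fold change of -1.91 (SE 0.87, unadjusted p = 0.0593 in edgeR). LOC105395011 (cuticle protein 12.5-like) had 25.7, 6.56 and 44.9 CPM in the controls and 5.47, 12.6 and 13.0 CPM with DMNT, with a log2 fold change of -1.31 (SE 0.62, unadjusted p = 0.0685 in edgeR). In both, Control 2 alone among the controls was down at the DMNT levels. The adult gene tested, LOC105394018 joined with LOC105394019 (ACP-20-like), had 27.5, 13.6 and 20.4 CPM in the controls and 12.6, 16.7 and 15.1 CPM with DMNT.

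The next question was how far the libraries of a group stood apart in these genes, which the design treats as replicates. Cuticle protein genes varied much more between replicate libraries than most genes did. The SD of log2 CPM within a group had a median of 0.680 over the 99 members and 0.300 over all genes tested, which places the members' median at the 89.7th percentile of all genes. The SD of 93 members was above the median of all genes, and that of 49 was above the 90th percentile, 0.689. Over the members, 59.8% of the variance of log2 CPM lay along the first principal component and 21.2% along the second, while over all genes these shares were 25.5% and 23.2%.

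**Figure D3:**
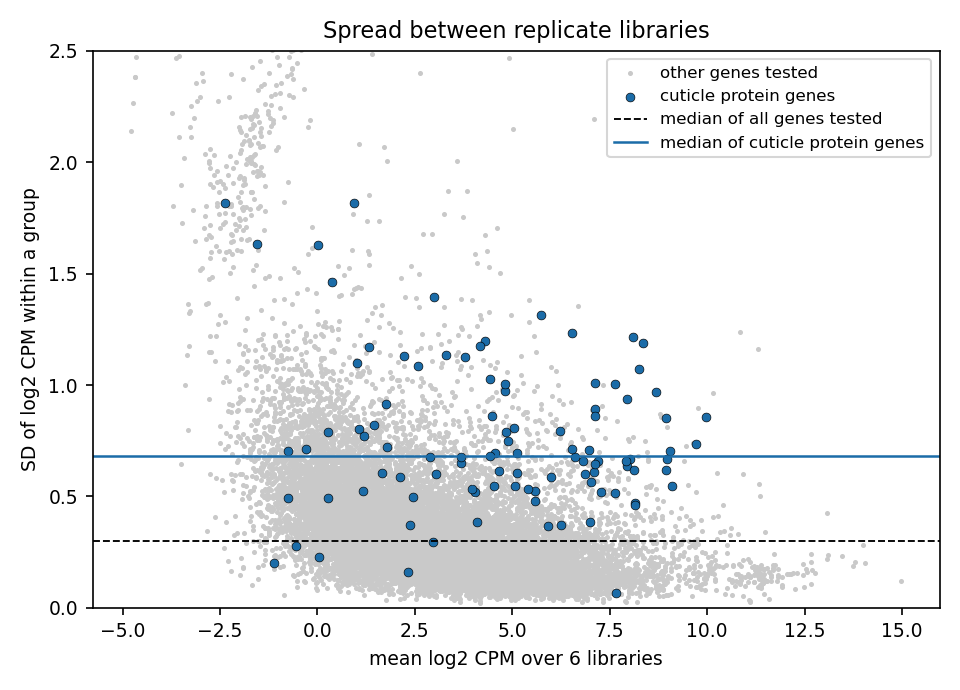
SD of log2 CPM within a group (vertical axis) against mean log2 CPM over 6 libraries (horizontal axis), for cuticle protein genes (blue) and all other genes tested (grey). The blue line is the members' median, 0.680, and the dashed line the median of all genes, 0.300. Grey points of 175 genes, 0 of them cuticle protein genes, lie above the plotted limit of 2.5.

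The spread had a common direction. Within the controls, 63 of 99 members (63.6%) had the order Control 3 above Control 1 above Control 2, an order found in 21.7% of all genes. Within the DMNT group, 68 members (68.7%) had DMNT 3 above DMNT 2 above DMNT 1, found in 19.9% of all genes. Members had a median ratio of Control 3 to Control 2 of 2.71 and of DMNT 3 to DMNT 1 of 2.07, while the medians over all genes were 0.989 and 0.992. Control 3 exceeded Control 2 by at least 2-fold in 61 members (61.6%) and in 6.34% of all genes, and the reverse held for 3 members. Over all 6 libraries, Control 3 was the highest for 45 members and DMNT 3 for 32, and Control 2 was the lowest for 44 and DMNT 1 for 42.

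**Figure D4:**
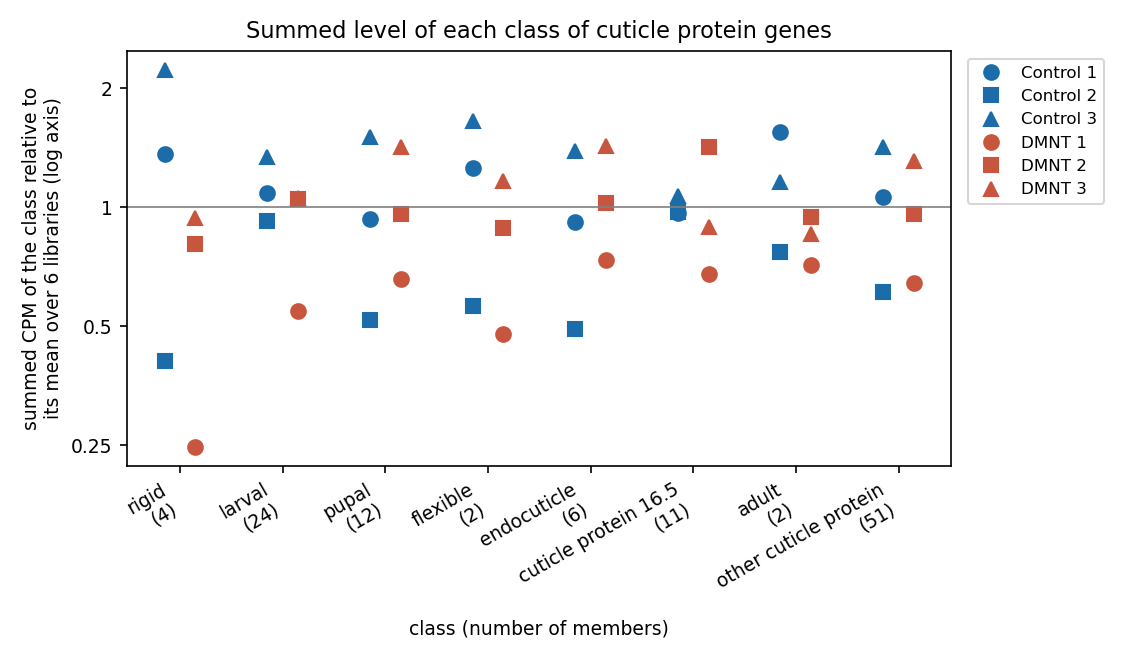
Summed CPM of each class in each library, divided by the mean of the 6 libraries, on a log axis. Circles, squares and triangles are replicates 1, 2 and 3, controls in blue and DMNT in red. The rigid class spans 9.0 times from its lowest to its highest library, and the cuticle protein 16.5 class 2.10 times.

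Classes differed in the width of this spread. The median SD was 1.33 for rigid, 0.854 for larval, 0.703 for cuticle protein 16.5, 0.696 for pupal, 0.629 for endocuticle and 0.615 for flexible genes. Rigid genes summed to 47.2, 14.2 and 77.1 CPM in the controls and to 8.58, 27.9 and 32.5 CPM with DMNT. Pupal genes summed to 514, 286 and 828 CPM and to 363, 532 and 785 CPM, and endocuticle genes to 394, 210 and 596 CPM and to 316, 441 and 613 CPM. In all 3 classes, as in the flexible class, replicate 3 was the highest in each group, and the low libraries were Control 2 and DMNT 1. The sum of the cuticle protein 16.5 class departed from this, with 1398, 1411 and 1550 CPM in the controls and 980, 2055 and 1291 CPM with DMNT, where DMNT 2 was the highest. That sum is carried by a few abundant genes such as LOC105395015, and gene by gene, Control 3 was the highest control for 8 of the 11 and DMNT 3 the highest DMNT library for 5. Larval genes summed to 5896, 5008 and 7266 CPM in the controls and to 2978, 5716 and 5744 CPM with DMNT. LOC105381413, LOC105381422 and LOC105381469, picked after their values were seen because they run against the common order, made up 2607 of the 5008 CPM in Control 2. The other larval genes summed to 4922, 2401 and 6852 CPM in the controls and to 2111, 3855 and 5082 CPM with DMNT, again with Control 2 and DMNT 1 as the low libraries.

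A small set of members ran against the common order. In 9 members Control 2 was the highest control, and 8 of the 9 also had DMNT 2 as the highest DMNT library. Besides LOC105396844, LOC105395015 and LOC105388717 these were LOC105381400, LOC105381413, LOC105381422, LOC105381469 and LOC105395014, and LOC105394090 was the exception in the DMNT group. LOC105381413 (LCP-17-like) had 244, 650 and 76.1 CPM in the controls and 270, 580 and 215 CPM with DMNT. Its neighbour LOC105381407, with the same description, had its control order reversed, at 348, 156 and 571 CPM. LOC105395217 (cuticle protein 21-like) did not take part in either pattern, with 191 to 215 CPM over all 6 libraries and an SD of 0.065, the lowest of the members.

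**Figure D5:**
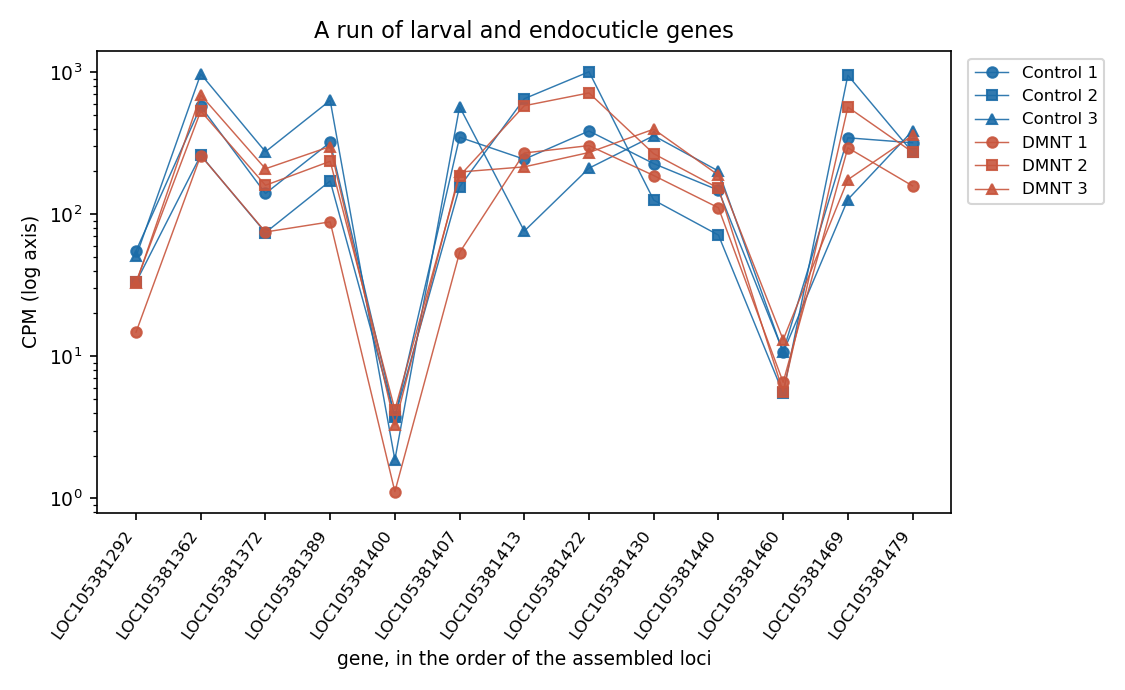
CPM (log axis) of 13 neighbouring cuticle protein genes in the order of the assembled loci, 10 of them larval, with a line for each library. LOC105381413, LOC105381422 and LOC105381469 are highest in Control 2 (squares) and lowest in Control 3 (triangles), between genes with the opposite order.

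Many members lie side by side. Loci at most 3 apart in the running number of the assembled loci formed 10 runs that hold 48 members, and whether neighbours share reads was not tested. The longest run, of 13 genes, held 9 genes higher in Control 3 than in Control 2 and 4 with the reverse. A run of 7 held all 4 rigid genes, 2 A2B-like larval genes (LOC105389381 and LOC105389399) and LOC105389398 (cuticle protein-like). All 7 were higher in Control 3 than in Control 2, and all 7 had log2 fold changes below 0, from -2.45 to -0.09. A run of 3 cuticle protein 16.5 rows had log2 fold changes of 0.42 to 1.07, all above 0.

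Genes drawn by words for chitin enzymes, tanning, moulting and cuticle assembly were compared in the same fit. Of 12 chitin enzyme genes tested, which cut or process chitin, 0 rose and 0 fell at the thresholds, and their median within-group SD was 0.378. Of 25 genes drawn by words for tanning, 0 rose and 0 fell, with a median SD of 0.452. They include enzymes that make or oxidize the catechols that harden and darken cuticle, and also genes described as protein yellow. That median is therefore not one of those enzymes alone. Of 20 genes drawn by words for ecdysone, hormone receptors or moulting, 0 rose and 0 fell, with a median SD of 0.298, near that of all genes. This list also holds genes described as zinc finger protein on ecdysone puffs and as ecdysteroid-regulated 16 kDa protein. Its median is therefore not that of ecdysone signalling alone. The cuticle assembly list gave 0 calls among 4 tested, with a median SD of 0.856. These 4 were pro-resilin-like genes and LOC105380712 (chondroitin proteoglycan-2-like). Whether the latter acts in cuticle was not tested. The pro-resilin-like LOC105395143 was near the floor, from 0 CPM in DMNT 1 to 1.13 CPM in Control 3.

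The order of libraries was counted in the same lists. Control 3 above 1 above 2 together with DMNT 3 above 2 above 1 held for 55 of 99 cuticle protein genes and 7.19% of all genes. These orders were picked as the most frequent among the members, so the contrast with other lists is partly set by that choice. The joint order held for 0 of 12 chitin enzyme genes and 4 of 25 genes of the tanning list. It held for 3 of the 20 genes drawn by ecdysone, receptor or moulting words, and for 2 of 4 assembly genes. Single genes, chosen after their values were seen, are given next as examples in both directions. LOC105380496, a tyrosine 3-monooxygenase that makes DOPA for tanning, had 345, 169 and 524 CPM in the controls and 237, 366 and 594 CPM with DMNT, the order of most cuticle protein genes in both groups. LOC105386870 (phenoloxidase subunit 2-like), of the same list, ran the other way, with 78.5, 121 and 55.5 CPM in the controls and 65.0, 107 and 20.4 CPM with DMNT. LOC105390651, eclosion hormone, which triggers the shedding of the old cuticle, had the order of the tyrosine 3-monooxygenase gene, with 11.6, 8.09 and 16.5 CPM in the controls and 3.58, 11.1 and 16.4 CPM with DMNT. The ecdysone-induced nuclear receptor HR3, LOC105394379, had 215, 451 and 251 CPM in the controls and 523, 479 and 292 CPM with DMNT. HR3 was high in Control 2 and DMNT 1, the low libraries of most members, and also in DMNT 2, where members were at middle levels. LOC105382027 (probable chitinase 3) likewise had its highest control, 182 CPM, in Control 2, beside 48.4 and 66.6 CPM in Control 1 and 3. With DMNT it had 135, 204 and 115 CPM. Among the 12 chitin enzyme genes tested, Control 2 was the highest control for 7 (36.3% of all genes) and Control 3 for 2 (34.5%). Among the 20 genes of the list that holds HR3, Control 2 was the highest control for 9 and Control 3 for 8. The labels give no time since the last moult for any library, and the part of moult timing in the spread was not tested.

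Markers of other tissues were compared in the same fit. The median within-group SD was 0.946 for fat body, 0.218 for muscle and 0.275 for midgut genes, beside 0.300 for all genes. Fat body genes, 14 tested of 18, summed to 3892, 8701 and 5634 CPM in the controls. With DMNT they summed to 7237, 11694 and 2038 CPM. Of the 14, 1 passed the thresholds as higher (0.367% of all genes), and 1 of the 18 had 0 counts in every library. Muscle genes, 18 tested of 21 and 0 of them undetected, summed to 45878 to 68766 CPM in the controls. With DMNT they summed to 60399 to 65752 CPM, and 0 passed the thresholds. Control 2 was the lowest library for 13 of the 18, and for 19.9% of all genes. Midgut genes, 100 tested of 161 with 14 at 0 counts in every library, summed to 23786 to 25494 CPM in the controls. With DMNT they summed to 26321 to 27910 CPM, above every control. Of the 100, 3 passed as lower (0.503% of all genes), and 21 did not overlap between the groups (8.37% of all genes). The part of these tissues in the cuticle protein values was not tested.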

How the data were processed

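Whole-body RNA of 3 control and 3 DMNT-treated samples was compared, grouped by their titles. By the methods, the authors cleaned reads, aligned them to the species' NCBI genome, and then assembled, quantified and tested genes. Per the submitters' processing notes this was done with HISAT, StringTie and edgeR, whose versions are not stated. The authors deposited raw counts per gene, without normalization, and FPKM scaled by exon length and mapped reads. Descriptions are the authors' annotation. The library kit marked strand, but the sources used here do not state whether counting used it, so overlapping and near-identical genes are uncertain. FPKM served to compare genes, and TMM-scaled CPM to compare libraries.

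The thresholds for calls are those of the study. The 17709 of 21946 genes whose mean FPKM reached 0.5 were tested with edgeR 4.0.16 (glmQLFit, glmQLFTest) in R 4.3.3, on all 6 libraries with no covariate. The SE was computed as the absolute log2 fold change over the square root of F. The within-group SD is the square root of the mean of the 2 group variances of log2 CPM, with a prior count of 1. The test was checked on simulated counts. All 15 pairs of libraries differed beyond sampling noise. The genes named are those past the thresholds, the 2 most abundant and the 2 with the smallest p in each class, the 5 with the largest within-group SD and the 5 with the largest ratio between libraries among those with a mean CPM of at least 10. Other members and list genes were named after their values were seen, and members and lists were chosen with earlier results of these data known. Alternatives were median-ratio scaling, no filter and a mean FPKM of at least 2, limma 3.58.1 on log2(FPKM + 0.1) and log2(FPKM + 1), DESeq2 1.42.0, a block for the replicate number, and fits without each library in turn. Leaving out Control 2 and DMNT 1 together was added after seeing the data.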

Additional observations from a re-analysis of the deposited data

How the results depend on the processing

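Median-ratio scaling and the stricter filter kept 0 members higher (0.367% and 0.223% of all genes) and 2 lower (0.514% and 0.401%). With no filter, 0 of 110 members tested were higher (0.431% of all genes) and 3 lower (0.682%). Members higher came to 1 in limma on log2(FPKM + 0.1) (0.316% of all genes) and 1 on log2(FPKM + 1) (0.119%). Members lower came to 4 in DESeq2 (0.593% of all genes) and 1 in limma on log2(FPKM + 0.1) (0.649%). Leaving out 1 library at a time gave 0 to 7 higher and 0 to 9 lower, beside 0.344% to 0.723% and 0.446% to 0.943% of all genes. Without Control 2 and DMNT 1 together, the libraries lowest for most members and so chosen by the outcome, 0 were higher and 6 lower. The shares of all genes in that fit were 0.599% higher and 0.757% lower. The median within-group SD was then 0.435 (0.246 over all genes). Leaving out 1 library gave an SD of 0.582 to 0.844 (0.275 to 0.307 over all genes). The labels do not say whether replicate numbers pair the samples. Deviations from the group mean correlated at 0.064, 0.048 and 0.078 between samples of the same number. All 6 samples correlated best with their own number, so whether they are paired was not settled. With the replicate block, 2 members were higher (0.435% of all genes) and 2 lower (0.57%). Both higher members were cuticle protein 16.5 rows (LOC105391272 at 1.08 and LOC105398516 joined with LOC105398514 at 1.57 on the log2 scale). The sign of 13 named genes changed in at least 1 fit that left out libraries, over log2 fold changes of -0.70 to 0.49 for LOC105389377, -0.65 to 0.24 for LOC105381362, -0.61 to 0.12 for LOC105387939, -1.76 to 0.64 for LOC105395365, -0.15 to 0.45 for LOC105396844, -0.060 to 0.68 for LOC105381430, -0.22 to 0.46 for LOC105381440, -0.75 to 0.45 for LOC105395015, -0.71 to 0.059 for LOC105388717, -0.10 to 0.59 for LOC105388427, -0.18 to 0.26 for LOC105395007, -1.03 to 1.37 for LOC105386325 and -0.40 to 1.31 for LOC105381413. LOC105386325 was also at -0.081 in limma on log2(FPKM + 0.1). The cause of these changes was not tested. In the shallowest library a count of 0 allows up to 0.0753 CPM before TMM scaling, so a level under that could be missed there.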

Other observations

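LOC105383576 and LOC105386338, both described as larval cuticle protein LCP-22-like, kept nearly the same ratio in every library. Their FPKM ratio was 1.22 to 1.28, with an SD of 0.028 for the log2 ratio, where the median over 2278 pairs of the 68 members with a mean CPM of at least 10 was 0.600. Both were highest in Control 1, at 118 and 92.8 CPM. Whether reads of one locus were counted at the other was not tested.

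LOC105386325 (cuticle protein 8-like), at 0.0643 to 1.07 CPM over the 6 libraries, and LOC105397364 (cuticle protein 7-like), at 15.4 to 160 CPM, were among the most variable members. The latter had 90.2, 23.6 and 160 CPM in the controls and 15.4, 62.2 and 68.0 CPM with DMNT, with a log2 fold change of -0.91 (SE 0.70, unadjusted p = 0.230 in edgeR).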
